A study of Mus musculus with 6 samples.

Results

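A set of 10 genes was followed in 6 RNA-seq libraries of mouse megakaryocytic-erythroid progenitors (MEPs). The genes were taken as markers of early red cell commitment outside heme synthesis, the red cell membrane and the transcription factors. They are Car1, Car2, Blvrb, Sphk1, Mfsd2b, Cldn13, Trim10, Smim1, Vamp5 and Atp1b2, taken by name as 10 of the 52459 genes in the deposited count table. MEPs are bone marrow cells that can form either platelet-producing megakaryocytes or red cells. The study compared wild-type mice (WT, 3 libraries) with Tmprss6-/- mice (KO, 3 libraries), which lack a liver protease whose loss raises hepcidin and leaves the body short of iron, the condition the study set out to examine. Each library was a pool of 3 mice, sorted for cKit and CD150 and against lineage markers, Sca, Fc gamma receptors, CD41 and CD105. The sources used here give no strain, no age and no form of the knockout allele.

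An MEP that turns to the red cell fate raises a set of enzymes and surface proteins before globin accumulates. Carbonic anhydrases, which convert carbon dioxide and bicarbonate into each other, are among the earliest and most abundant of these. Red cells are also a main source of the blood lipid sphingosine 1-phosphate, which sphingosine kinases make and the transporter Mfsd2b carries out of the cell. Other members of the set act in redox chemistry (Blvrb), in terminal differentiation (Trim10), as a blood group antigen (Smim1), at membranes (Cldn13, Vamp5) and in ion transport (Atp1b2).

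Libraries held 13402209 to 22986837 counts. Levels are given as CPM, the usual per-depth scale of counts on TMM-scaled library sizes, and a floor of 3 counts was worth 0.138 to 0.220 CPM. Tmprss6 itself gave 0 to 5 counts per library in both genotypes and checked no label. All 10 MEP markers examined (among them Kit, Gata1, Gata2, Klf1, Epor and Slamf1) were detected in every library, with summed levels of 2311 to 4745 CPM in WT and 2427 to 4176 CPM in KO. KO replicate 2 stood apart most, with transcripts of other blood cells. Its 11 late erythroblast and globin genes summed to 5385 CPM, where the other 5 had 217 to 451 CPM, its 12 macrophage genes to 2885 against 83.3 to 300 CPM, and its 12 eosinophil, basophil and mast cell genes to 7610 against 43.0 to 744 CPM. The neutrophil list summed to 3456 against 87.0 to 387 CPM, the megakaryocyte list to 383 against 205 to 270 CPM, and the stem and multipotent progenitor list to 934 against 515 to 797 CPM. KO replicate 3 stood apart in lymphoid and plasma cell genes. They summed to 1278 CPM there and to 1733 CPM in KO replicate 2, against 276 to 572 CPM in the other 4 libraries. Immunoglobulin Igkc was at 385 CPM in KO replicate 3 and at 333 CPM in KO replicate 2, against 0.712 to 56.3 CPM in those 4. KO replicate 3 also had the lowest sum of eosinophil, basophil and mast cell genes, 43.0 CPM. The next lowest was 119 CPM in WT replicate 3. The genotype comparison of each member is given also for the replicates 1 and 3, without KO replicate 2 and its WT partner. In that comparison 6 of 10 eosinophil, basophil and mast cell genes tested passed as lower in KO. So did 2 of 11 neutrophil genes and 1 of 11 stem and progenitor genes, against 0.604% of all genes. As higher in KO passed 4 of 11 late erythroblast and globin genes and 1 of 10 lymphoid and plasma cell genes, against 0.258% of all genes. The part of these other cells in the results was not tested. In RNA from pooled cells, fewer cells of a type and less RNA per cell cannot be told apart.

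**Figure D1:**
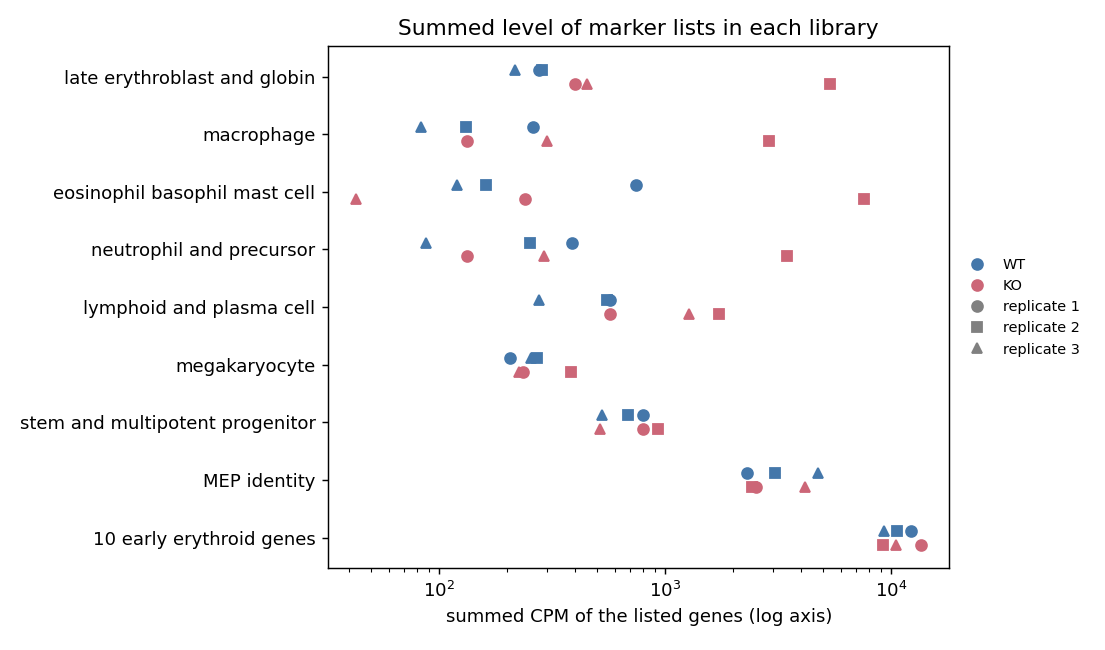
Summed CPM (log axis) of 8 cell type marker lists and of the 10 early erythroid genes, 1 point per library, colored by genotype and shaped by replicate number. Late erythroblast and globin genes reach 5385 CPM in KO replicate 2 and no more than 451 CPM in any other library. The sums of the 10 early erythroid genes run from 9190 CPM in KO replicate 2 to 13576 CPM in KO replicate 1. Most of each sum is Car1 and Car2, at 3971 and 3283 CPM in KO replicate 2. The sum therefore does not show how the less abundant members differ between libraries.

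The set did not shift together with genotype. In edgeR's quasi-likelihood test over all 6 libraries 0 of the 10 genes passed an adjusted p of 0.05, as did 0% of the 13453 genes tested, with adjusted p of 1.00 for every member. One member, Trim10, had an unadjusted p under 0.05, as had 234 genes in all (1.74%). With limma voom 0 genes passed and 97 had an unadjusted p under 0.05. With the replicate number as a block, 3 members (Sphk1, Cldn13 and Trim10) and 476 genes in all were under 0.05 unadjusted, and 0 passed after adjustment. All 10 members passed the filter on low counts. Of these, 5 had a higher level in KO, against 49.3% of all genes, and 5 a lower one, with a median log2 fold change of -0.0038 against -0.0048 over all genes tested. Directions were then counted within pairs, meaning KO against WT of the same replicate number. Car2, Sphk1, Cldn13 and Trim10 were higher in KO in 3 of 3 pairs, as were 11.6% of all tested genes, and Mfsd2b and Atp1b2 were lower in 3 of 3 pairs, as were 13.3%. When the replicates 1 and 3 were compared with the replicate number as a block, Cldn13 and Trim10 passed as higher in KO, and 0 of the 10 as lower. In that fit 0.862% of 13572 genes passed, 0.258% as higher and 0.604% as lower, and 5 of the 10 members were above 0, against 48.5% of all genes. Unadjusted, 6 of the 10 were under 0.05 there, against 13.2% of all genes. This fit leaves 1 residual degree of freedom.

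**Figure D2:**
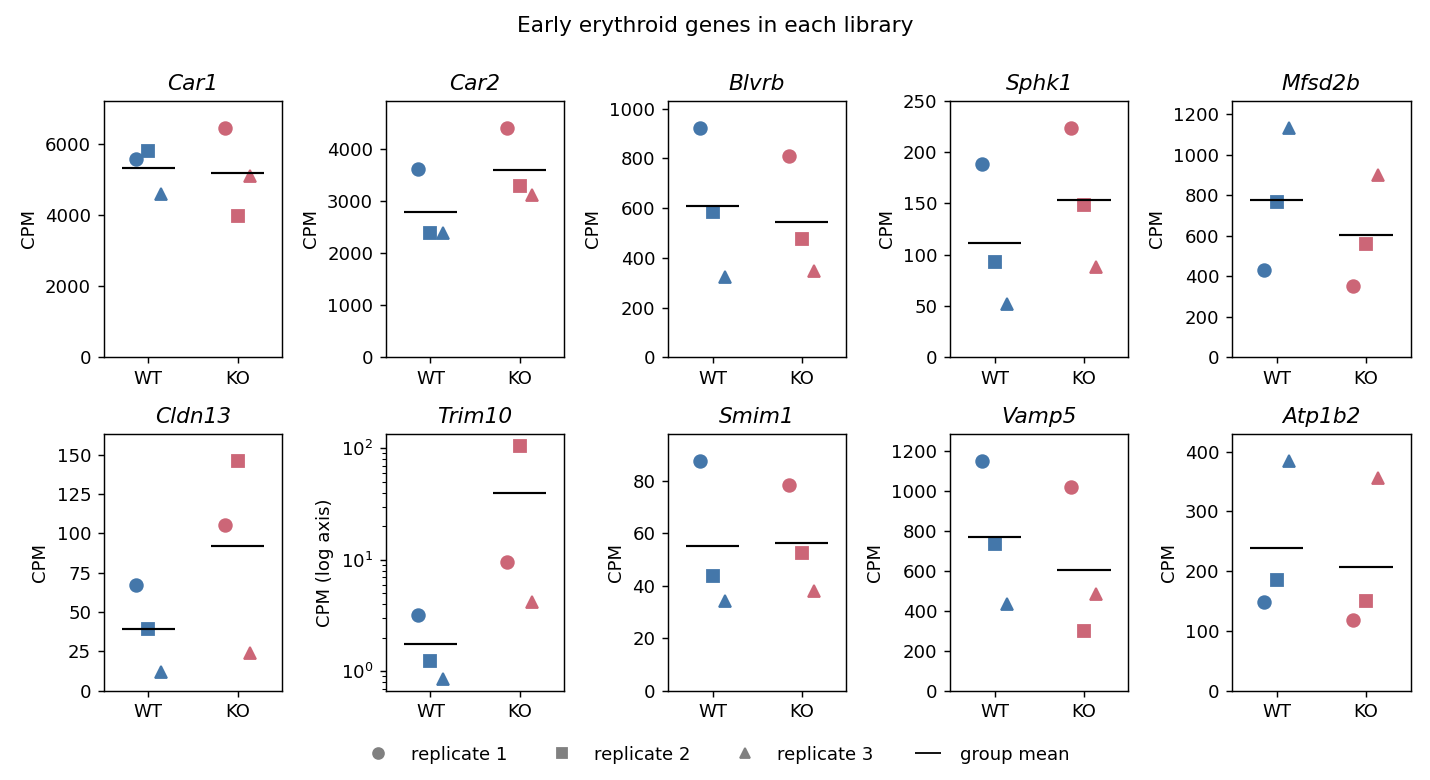
CPM of the 10 genes in each library, WT in blue and KO in red, with a symbol for each replicate number and a line at the group mean; Trim10 has a log axis. The groups separate for Trim10, at 0.854 to 3.18 CPM in WT and 4.19 to 106 CPM in KO, and overlap for the other 9 genes.

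The carbonic anhydrases were by far the most abundant members. Car1 (ENSMUSG00000027556, chromosome 3, 14766216 to 14808368, minus strand) was at 5589, 5816 and 4581 CPM in WT replicates 1 to 3 and at 6451, 3971 and 5112 CPM in KO replicates 1 to 3. The KO libraries held both the highest and the lowest value, so the groups overlapped. Its log2 fold change was -0.041 (SE 0.34), and without KO replicate 2 and its partner it was 0.18 (SE 0.078, edgeR adjusted p = 0.32), so that the sign rested on that pair. Car2 (ENSMUSG00000027562, 14886273 to 14900770, plus strand) lies 77904 bases from Car1 on the same chromosome. It was at 3627, 2389 and 2382 CPM in WT and at 4406, 3283 and 3114 CPM in KO. The KO library was the higher of each pair, by 0.28, 0.46 and 0.39 on the log2 scale, although WT replicate 1 exceeded KO replicates 2 and 3. The log2 fold change was 0.36 (SE 0.34), and 0.33 (SE 0.083, edgeR adjusted p = 0.074) in the replicates 1 and 3. DESeq2 with the same block called Car2 there (adjusted p = 0.038).

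The ratio of both enzymes within a library needs no scaling between libraries. The log2 ratio of Car1 to Car2 counts was 0.62, 1.28 and 0.94 in WT and 0.55, 0.27 and 0.72 in KO. KO had the lower ratio in 3 of 3 pairs, with means of 0.95 ± 0.33 and 0.51 ± 0.22 (SD, n = 3). The difference was -0.44 (two-sided exact permutation p = 0.2, adjusted over 4 ratios 0.6). With 3 against 3 libraries no p under 0.1 is possible, so this test could not pass 0.05 for any of the 4 ratios.

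The other carbonic anhydrases were minor. Of 14 further family members 6 passed the filter, 2 higher and 4 lower in KO and 0 past the threshold in either fit, and the 14 together gave 30.1 to 40.7 CPM per library. Car13, a cytosolic form, had 8.89 to 14.6 CPM in WT and 7.71 to 15.3 CPM in KO. Car3, which lies between Car1 and Car2, was at 4.89 to 6.55 and 4.70 to 10.9 CPM, and Car9, a membrane form, at 14.2 to 16.6 and 11.4 to 14.6 CPM.

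Blvrb (ENSMUSG00000040466, chromosome 7, 27447978 to 27466144, plus strand) encodes biliverdin reductase B, which reduces flavins and one form of biliverdin with NADPH. It was at 923, 586 and 323 CPM in WT and at 810.5, 475 and 345 CPM in KO. Values differed far more between replicate numbers than between genotypes, and the groups overlapped over almost their whole range. This gave a log2 fold change of -0.17 (SE 0.47), and -0.049 (SE 0.10, edgeR adjusted p = 0.90) in the replicates 1 and 3. Its counterpart Blvra, which completes heme breakdown to bilirubin, had 64.0 to 190 CPM in WT and 76.7 to 199 CPM in KO. The log2 ratio of Blvrb to Blvra was 2.28, 2.60 and 2.33 in WT and 2.03, 2.36 and 2.17 in KO. It was lower in KO in 3 of 3 pairs by 0.16 to 0.25, with an overall difference of -0.22 (two-sided exact permutation p = 0.3 without regard to pairs, adjusted 0.6). Of the heme oxygenases, Hmox2 was at 29.8 to 49.5 CPM in all libraries. Hmox1, which macrophages express strongly, was at 211 CPM in KO replicate 2 and at 3.56 to 34.9 CPM in the others. The 3 genes of heme breakdown had log2 fold changes above 0 in both fits, and 0 passed.

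The 2 members of the sphingosine 1-phosphate pathway had differences of opposite sign, and neither passed the test. Sphk1 (ENSMUSG00000061878, chromosome 11, 116530925 to 116536674, plus strand), the kinase that makes the lipid, was at 188, 93.1 and 51.7 CPM in WT and at 223, 148 and 88.1 CPM in KO. Each KO library lay above the WT library of its number, by 0.25, 0.67 and 0.77 on the log2 scale, while the groups overlapped. The log2 fold change was 0.46 (SE 0.52) over 6 libraries and 0.49 (SE 0.13, edgeR adjusted p = 0.10) in the replicates 1 and 3, where the newer quasi-likelihood method gave an adjusted p of 0.056. Mfsd2b (ENSMUSG00000037336, chromosome 12, 4862440 to 4874359, minus strand), the exporter, was at 429, 767 and 1132 CPM in WT and at 353, 559 and 901 CPM in KO. The KO library was the lower of each pair, with log2 differences of -0.28, -0.46 and -0.33. Its log2 fold change was -0.36 (SE 0.47), and -0.31 (SE 0.094, edgeR adjusted p = 0.15) in the replicates 1 and 3. Neither gene passed the threshold in any of the alternative fits run.

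The rest of the pathway showed no called change. Of 19 further genes for making, breaking down, exporting and sensing the lipid, 14 passed the filter, 8 higher and 6 lower in KO, and 0 were past the threshold. In the replicates 1 and 3 it was 6 higher and 9 lower of 15, again with 0 past it. Sphk2, the second sphingosine kinase, was at 27.8, 36.0 and 53.2 CPM in WT and at 29.2, 43.6 and 49.8 CPM in KO. The log2 ratio of Sphk1 to Sphk2 counts accordingly ran from -0.043 in WT replicate 3 to 2.93 in KO replicate 1. It was higher in KO by 0.18, 0.39 and 0.87 in the 3 pairs (two-sided exact permutation p = 0.7, adjusted 0.7), a mean difference of 0.48 that changed sign when WT replicate 3 (-0.22) or KO replicate 1 (-0.070) was left out. Spns2, an exporter known from endothelial cells, was at 150, 244 and 370 CPM in WT and at 151, 149.8 and 263 CPM in KO. Mfsd2a, the relative of Mfsd2b that carries other lipids, was at or below the floor in all 6 libraries. Sgpl1, the lyase that destroys the lipid, reached 97.6 CPM in KO replicate 2 and was at 18.2 to 32.2 CPM elsewhere. Plpp1, a lipid phosphatase and the gene of the pathway with the smallest p, was highest in KO replicate 2, at 16.4 CPM. The other KO libraries had 3.55 and 3.01 CPM and WT 0.356 to 2.58 CPM, a log2 fold change of 2.48 that did not pass (adjusted p from edgeR 1.00). In the replicates 1 and 3 it was 1.51 (adjusted p from edgeR 0.32).

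Trim10 and Cldn13 had the largest differences. Trim10 (ENSMUSG00000073400, chromosome 17, 36869574 to 36877833, plus strand) encodes a RING finger protein of terminal erythroid differentiation. It was at 3.18, 1.24 and 0.854 CPM in WT and at 9.60, 106 and 4.19 CPM in KO, from 69, 18 and 12 counts and 157, 1699 and 57 counts. The lowest KO library lay above the highest WT library, a separation that 2.27% of all tested genes showed in that direction, 1.75% in the other and 4.03% in either. The groups overlapped for the other 9 members. The log2 fold change was 4.47 (SE 1.26, unadjusted p = 0.0080, edgeR adjusted p = 1.00), and DESeq2 called the gene (adjusted p = 0.020), as it did 0.03% of genes as higher in KO. The size rested on KO replicate 2. In the replicates 1 and 3 the log2 fold change was 1.88 (SE 0.42, edgeR adjusted p = 0.0497), a 3.68-fold difference, with log2 differences of 1.56 and 2.14 in these pairs. The call was lost there with RLE scaling (adjusted p = 0.078) and with upper-quartile scaling (0.16).

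Cldn13 (ENSMUSG00000008843, chromosome 5, 134914249 to 134915526, minus strand), a claudin of mouse erythroid cells, was at 67.3, 38.9 and 12.1 CPM in WT and at 105, 146 and 24.1 CPM in KO. KO was the higher of each pair, by 0.64, 1.90 and 0.99 on the log2 scale, and KO replicate 3 was below 2 of the 3 WT libraries. The log2 fold change was 1.22 (SE 0.75) over 6 libraries and 0.79 (SE 0.15, edgeR adjusted p = 0.018) in the replicates 1 and 3, a 1.73-fold difference. That call was lost with upper-quartile scaling (0.11). Of 16 other claudin genes, 4 passed the filter, 2 higher and 2 lower in KO (3 and 1 in the replicates 1 and 3), and 0 were past the threshold in either fit. Most of their sum came from Cldnd1, a claudin domain protein at 84.0 to 143 CPM. Cldn15 reached 12.3 CPM in KO replicate 2 against at most 1.47 CPM elsewhere.

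The late erythroblast genes had a higher sum in each KO library than in any WT library. The 11 genes of that list summed to 276, 286 and 217 CPM in WT and to 398, 5385 and 451 CPM in KO in replicates 1 to 3. In the replicates 1 and 3, 4 of the 11 passed as higher in KO (Hba-a1, Hbb-bs, Hbb-bt and Alas2) and 0 as lower, against 0.258% and 0.604% of all genes, with a list median of 1.10 on the log2 scale against -0.010 over all genes. Their part in the differences of Trim10 and Cldn13 was not tested. A further list held genes of the same family as Trim10, several of them its neighbors in the major histocompatibility region. Of these 7 genes 4 passed the filter, 3 higher and 1 lower in KO (1 and 3 in the replicates 1 and 3), and 0 passed the threshold in either fit. Trim58, itself an erythroid gene, was at 13.1, 21.1 and 43.8 CPM in WT and at 12.5, 24.3 and 27.2 CPM in KO.

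**Figure D3:**
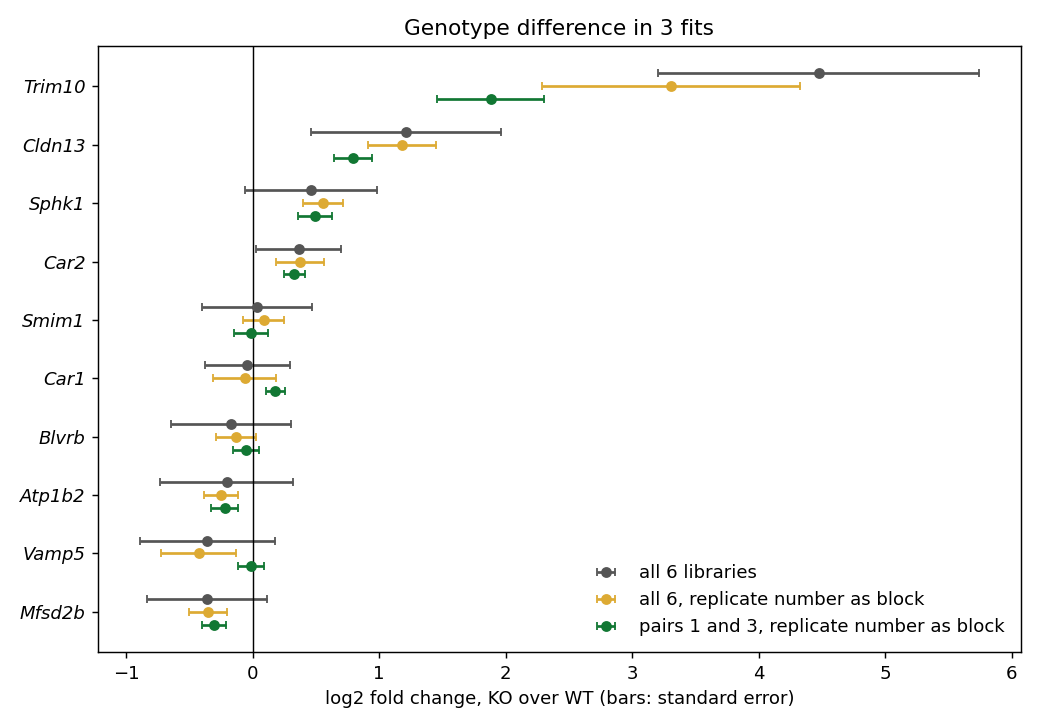
Log2 fold change of KO over WT for the 10 genes, with bars of 1 standard error, over all 6 libraries, over all 6 with the replicate number as a block, and over the replicates 1 and 3 with the block. Trim10 falls from 4.47 to 1.88 when the second pair is left out, and Cldn13 from 1.22 to 0.79. The values of Car1, Car2, Blvrb, Mfsd2b, Smim1, Vamp5 and Atp1b2 lie within 0.5 of 0 in all 3 fits.

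RefSeq start-site windows (250 bases before to 50 after the start, GRCm38.p6) were present for 6 members, in 11 windows; Car1, Car2, Cldn13 and Atp1b2 had none in that table. They were searched on both strands for AGATAA (read as TTATCT on the other strand), the core bound by GATA factors, and for CCACACCC, a KLF1 core. AGATAA was found in the window of Trim10 and in 2 overlapping windows of Sphk1, against 11.2% of all 32851 windows. CCACACCC was found in 0 of the 11, against 3.56% of all windows. The 250 bases before the start are shown for Trim10, the member with the largest difference, and for Mfsd2b, which was lower in KO in each pair, each 5′ to 3′ on the gene's own strand. Capitals mark the motif, which in Trim10 begins 163 bases before the start. The Trim10 stretch is chr17:36869324-36869573, plus strand, and that of Mfsd2b is chr12:4874360-4874609, minus strand.
Trim10: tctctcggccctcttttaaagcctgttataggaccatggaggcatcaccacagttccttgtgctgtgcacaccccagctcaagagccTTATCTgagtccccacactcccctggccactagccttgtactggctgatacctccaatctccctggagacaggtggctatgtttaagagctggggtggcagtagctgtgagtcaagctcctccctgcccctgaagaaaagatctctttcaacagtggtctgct
Mfsd2b: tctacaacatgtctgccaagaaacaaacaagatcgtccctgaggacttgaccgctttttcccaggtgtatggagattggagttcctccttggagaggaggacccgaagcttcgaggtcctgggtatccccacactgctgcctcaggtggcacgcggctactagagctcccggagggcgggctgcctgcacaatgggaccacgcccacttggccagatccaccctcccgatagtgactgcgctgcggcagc
A match is a description of these letters and does not show binding.

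The membrane proteins Smim1, Vamp5 and Atp1b2 showed no called difference. Smim1 (ENSMUSG00000078350, chromosome 4, 154020470 to 154026230, minus strand) carries the Vel blood group antigen. It was at 87.4, 43.8 and 34.1 CPM in WT and at 78.6, 52.6 and 38.1 CPM in KO, and the KO range lay inside that of WT. Its log2 fold change was 0.034 (SE 0.44), and -0.0096 (SE 0.13, edgeR adjusted p = 0.99) in the replicates 1 and 3. Its annotated span overlaps Lrrc47 on the other strand by 1044 bases, and Lrrc47 had 497 to 1136 counts per library. The libraries do not mark the strand, so reads from the shared stretch cannot be told apart.

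Vamp5 (ENSMUSG00000073002, chromosome 6, 72368794 to 72380468, minus strand), a SNARE protein of membrane fusion, was at 1149, 733 and 436 CPM in WT and at 1022, 302 and 486 CPM in KO. KO replicate 2 was the lowest of the 6 libraries, and KO 1 and 3 lay near their WT partners. The log2 fold change was -0.36 (SE 0.53) with that library and -0.010 (SE 0.10, edgeR adjusted p = 0.98) in the replicates 1 and 3. Of 5 other family members, 1 was higher and 4 were lower in KO (2 and 3 in the replicates 1 and 3), with 0 past the threshold in either fit. Vamp8, which acts in granule release, was the most abundant of them, at 294 to 523 CPM in WT and 281 to 617 CPM in KO.

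Atp1b2 (ENSMUSG00000041329, chromosome 11, 69599736 to 69605942, minus strand), a beta subunit of the sodium pump, was at 148, 186 and 384 CPM in WT and at 118, 149.6 and 355 CPM in KO. The KO library was the lower of each pair, with log2 differences of -0.33, -0.31 and -0.11. Over the 6 libraries the log2 fold change was -0.20 (SE 0.52), and it was -0.22 (SE 0.11, edgeR adjusted p = 0.41) in the replicates 1 and 3. Of the other pump subunits and regulators 5 of 12 passed the filter, 4 higher and 1 lower in KO (3 and 2 in the replicates 1 and 3), and 0 passed the threshold in either fit. The beta subunit Atp1b3 had 291 to 419 CPM in WT and 291 to 406 CPM in KO, while Atp1b1 was at 27.6 CPM in KO replicate 2 and at most 1.84 CPM elsewhere. The log2 ratio of Atp1b2 to Atp1b3 was -1.50, -0.96 and 0.40 in WT and -1.78, -0.96 and 0.22 in KO (difference -0.16, two-sided exact permutation p = 0.7, adjusted 0.7). Within both genotypes replicate 3 was thus the only one with more Atp1b2 than Atp1b3 counts. The difference changed sign without WT replicate 3 (0.39) or KO replicate 1 (0.31).

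For 8 of the 10 genes most of the spread followed the replicate number, the exceptions being Car1 and Trim10. In a split of the sum of squares of log2 CPM, the replicate number took 96.5% for Blvrb, 96.1% for Smim1, 95.7% for Atp1b2 and 90.6% for Mfsd2b, and genotype 1.32%, 0.787%, 3.73% and 9.03%. Over all tested genes the medians were 74.4% for the replicate number and 4.63% for genotype. The replicate number took 82.4% for Sphk1, 72.4% for Cldn13, 70.1% for Vamp5 and 63.5% for Car2, and genotype 15.1%, 22.96%, 9.86% and 35.2%. For Car1 the replicate number took 41.8% and genotype 1.80%, so that most lay in neither. Trim10 alone of the 10 had the larger share with genotype, 55.7% against 22.001%, with KO replicate 2 included. In both genotypes 8 members were higher in replicate 1 than in replicate 3, and the other 2, Mfsd2b and Atp1b2, were higher in replicate 3. That a gene differs the same way in both genotypes was common, since 42.8% of all tested genes were higher in replicate 1 in both and 41.5% in replicate 3. For Cldn13 replicate 1 exceeded replicate 3 by 5.56-fold in WT and 4.37-fold in KO, and for Sphk1 by 3.65-fold and 2.53-fold. For Mfsd2b replicate 3 exceeded replicate 1 by 2.64-fold and 2.55-fold, and for Atp1b2 by 2.59-fold and 3.02-fold. Kit, the stem cell factor receptor used in the sort, was at 392, 822 and 1640 CPM in WT and at 316, 578 and 1246 CPM in KO, and Gata2 at 272, 441 and 814 and at 244, 299 and 605 CPM. Both had the order of Mfsd2b and Atp1b2. Replicate 3 of both genotypes also differed from the others in its mice, with 351 and 175 counts of the female-specific Xist against at most 1 in the other libraries. The part of sex or of Kit level in the spread was not tested, and no label explains the numbering.

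**Figure D4:**
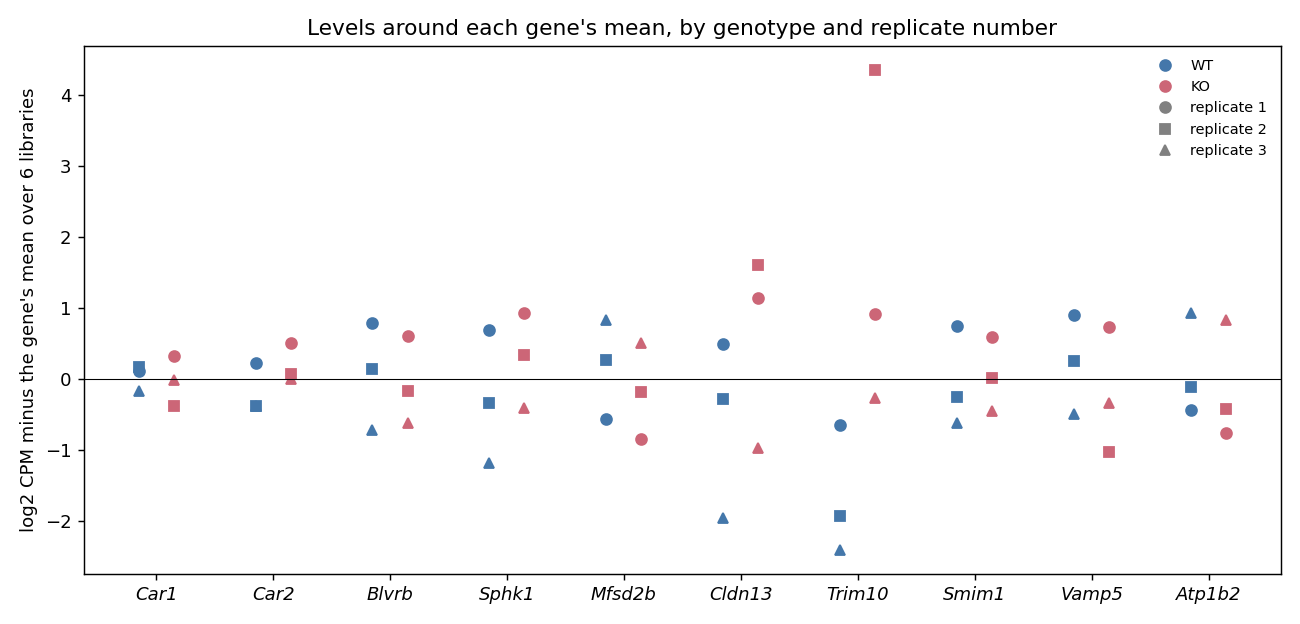
Log2 CPM of each gene minus its mean over the 6 libraries, WT in blue and KO in red, with a symbol for each replicate number. Replicate 1 (circles) lies above replicate 3 (triangles) in both genotypes for 8 genes and below it for Mfsd2b and Atp1b2, and Trim10 in KO replicate 2 stands farthest from its mean.

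Per length of the longest annotated coding transcript, the levels spanned a wide range. Car1 was at 4463 ± 551 CPM per kilobase in WT (SD, n = 3) and ranked 2 of 13443 tested genes with a known length, in both genotypes. Car2 followed at 1566 ± 401 (rank 17), then Blvrb at 594 ± 293, Vamp5 at 295 ± 137 and Mfsd2b at 271 ± 123. Atp1b2 was at 84.1 ± 44.5, Sphk1 at 41.8 ± 26.3, Cldn13 at 37.0 ± 25.9, Smim1 at 10.8 ± 5.58 and Trim10 at 0.783 ± 0.556, rank 11705. Car1 exceeded Car2 and Car2 exceeded Blvrb in 6 of 6 libraries, with no overlap of their WT ranges. Vamp5 and Mfsd2b, Atp1b2 and Sphk1, and Sphk1 and Cldn13 each took turns, with the first above the second in 3 of 6 libraries. In KO Cldn13 stood at 85.9 ± 58.0 and ranked 1288, against 2722 in WT. The length for Smim1 is that of a transcript of 5091 bases with 234 coding bases, so that its level per length is a low estimate if a shorter form is made.

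For 4 members the genes of most similar pattern over the 6 libraries were found as those with the smallest root mean square difference of centered log2 CPM, among 9362 other genes with a mean of at least 5 CPM. Car1 was nearest to Dok1, Mettl2 and Eif3g (0.046, 0.048 and 0.051 log2 units, against a median of 0.47 over all candidates). Car2 was nearest to Fignl1, Phf10 and Fam72a (0.076, 0.079 and 0.087, median 0.52), and Blvrb to Mthfs, Abracl and Dtymk (0.028, 0.045 and 0.050, median 0.74). The nearest genes to Trim10 were Ccl6, Pla2g7 and Slc11a1, at larger distances of 0.58, 0.64 and 0.65 (median 2.29). Ccl6, a chemokine of myeloid cells, was at 279 CPM in KO replicate 2 and at 1.57 to 11.4 CPM elsewhere. Pla2g7 was at 23.7 CPM there and at 0.213 to 2.44 CPM elsewhere, and Slc11a1 at 48.0 and at 0.498 to 3.60 CPM. Both of these reached the mean of 5 CPM only through KO replicate 2, so their place among the candidates rests on that library. Trim10 itself lay 4.35 log2 units above its mean in that library.

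Other genes of early red cell commitment were set beside these 10. Of 30 such genes 29 passed the filter, 21 higher and 8 lower in KO, with a median log2 fold change of 0.36 against -0.0048 over all genes and 0 past the threshold. Within pairs 13 of the 29 were higher in 3 of 3 and 2 were lower, against 11.6% and 13.3% of all genes. In the replicates 1 and 3, 22 of the 29 were higher with a median of 0.17, and 3 passed as higher (Tfrc, Rhag and Cpox) and 0 as lower, against 0.258% and 0.604% of all genes. Tfrc, the transferrin receptor that takes up iron, was at 100.5, 97.0 and 65.5 CPM in WT and at 343, 476 and 204 CPM in KO, with no overlap. Its log2 fold change was 1.96 (SE 0.38) over the 6 libraries and 1.70 (SE 0.11, edgeR adjusted p = 1.7e-06) in the replicates 1 and 3. Rhag, an ammonia channel subunit, was at 107, 80.6 and 96.8 CPM in WT and at 208, 281 and 123 CPM in KO, so that its groups did not overlap. Cpox, Tspan33 and Pklr of this list were also higher in KO without overlap, and Tspo2 and Nfe2 were lower without overlap. Of all tested genes 2.27% separated as higher in KO and 1.75% as lower. Sptb, the beta spectrin of the red cell skeleton, had 2.44 to 5.10 CPM in WT and at 4.40, 129 and 9.40 CPM in KO. Klf1 and Gata1, the regulators of many of these genes, were at 506 to 665 and 443 to 610 CPM in WT and at 468 to 693 and 381 to 594 CPM in KO, with log2 fold changes of 0.078 and -0.049.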

How the data were processed

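The authors deposited 1 table of raw read counts for Ensembl genes, unscaled whole numbers, per the file headers and values. Per the submitters' processing notes, FastQC 0.11.5, STAR 2.5.3a and edgeR were used, and GRCm38.p3 and GRCh38.p3 are named; the read counter, its strand setting and the annotation were not stated there. SMART-Seq v4 and Nextera XT, per the labels' protocols, do not mark the strand. Coordinates are those of the deposited table, and 49828 of 52459 genes have the same start and end in GENCODE M21, from which lengths came.

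With edgeR 4.0.16, 13453 genes were kept by filterByExpr (minimum count 10, minimum total 15), scaled by TMM and compared with its quasi-likelihood test (older method, the default), two-sided, with Benjamini-Hochberg adjustment over all genes. Log2 CPM add a prior count of 2, and ratios 0.5 counts. SE is that of the log2 fold change, KO over WT, worked out as its absolute value over the square root of the test's F. In the replicates 1 and 3, with 1 residual degree of freedom, it rests largely on variance shared across genes. DESeq2 1.42.0, limma 3.58.1 (voom) and R 4.3.3 were used. The fits were also run on counts simulated from the replicate-block model of these data. That model sets no single library apart as KO replicate 2 was, so the run does not show how the fits behave with such a library.

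Replicate numbers were taken as pairing the libraries from the data: deviations from the group means correlated at 0.53, 0.16 and 0.63 within the numbers 1, 2 and 3. Across numbers the correlations ran from -0.60 (WT 1 with KO 3) to 0.031 (WT 1 with KO 2). The deviations within a group sum to 0, so values above 0 within numbers bring values below 0 across them. The values across numbers are therefore no separate support, and the pairing of number 2 is the weakest. The pairing was thus chosen from the same counts that the block fits and the pair counts use. No label explains the numbering. With 3 pools a group, p-values of the fits without a block measure the spread between pools. In fits with the block they measure the spread left after the replicate number. The replicates 1 and 3 give 2 pairs and 1 residual degree of freedom. The members, the lists, the choice of replicates 1 and 3 and the rule for named genes (all 10 members, partners and family members of each, up to 4 genes of smallest p per list, the most abundant markers, 3 nearest patterns) were chosen with earlier results of these data known. Not every gene the rule named is reported. Vamp7, Cldn25 and Ahsp, on the lists, were not analysed here.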

Additional observations from a re-analysis of the deposited data

How the results depend on the processing

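Over all 6 libraries, 0 genes passed with edgeR under other scalings, filters, the newer quasi-likelihood method, limma voom and the replicate block (476 genes at an unadjusted p under 0.05 with the block), and 6 genes, 1 of them a member (Trim10), with DESeq2. The replicate block changed no call of a member over the 6 libraries. With the block and the replicates 1 and 3 alone, 117 genes and 2 members passed, and Car1 (0.18) and Smim1 (-0.0096) changed sign. Smim1 also did so with upper-quartile scaling (-0.0023). In that 4-library block fit the count of genes was 64 with RLE scaling, 31 with upper-quartile scaling, 190 without a filter, 185 with at least 1 CPM in 3 libraries, 226 with the newer quasi-likelihood method and 107 with DESeq2. RLE scaling left 1 member and upper-quartile scaling 0. DESeq2 called Cldn13 and Car2. It gave Trim10 an unadjusted p under 0.05 but no adjusted p, so that the gene was neither called nor rejected in that fit. The paired ratios, with a sign-flip test in place of the replicate block, each gave an exact p of 0.25, the smallest that 3 pairs of one sign can give, so that this test could not pass.

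Leaving out 1 library at a time called 0 genes and 0 members, and 5 to 7 members were higher in KO. Log2 fold changes then ran from -0.24 to 0.12 for Car1, -0.58 to 0.25 for Blvrb, -0.78 to 0.017 for Mfsd2b, -0.29 to 0.53 for Smim1, -0.98 to 0.042 for Vamp5 and -0.85 to 0.32 for Atp1b2. Those of Car2 (0.19 to 0.59), Sphk1 (0.081 to 1.08), Cldn13 (0.71 to 1.84) and Trim10 (1.95 to 5.23) kept their sign. The ratio differences ran from -0.60 to -0.27 for Car1 to Car2, -0.30 to -0.12 for Blvrb to Blvra, -0.22 to 1.18 for Sphk1 to Sphk2 and -0.69 to 0.39 for Atp1b2 to Atp1b3. Depth limits Trim10 most, with 12 to 69 counts per WT library.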
